A study of Gallus gallus with 3 samples.

Results

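The 8 genes described here encode histone H3.3 or proteins that handle it. They were chosen by name: the H3.3 genes H3F3B and H3F3C, the HIRA complex genes HIRA, UBN1 and CABIN1, and the other H3 chaperone genes ASF1A, ATRX and NASP. All 8 of the 8 were among the 11877 genes with read counts and the 11929 genes with FPKM (fragment counts made relative to transcript length and sequencing depth), and all 8 were deep enough to be tested. The study compared chicken DT40 cells, a B cell line from a bursal lymphoma, of the DT40-ASF derivative. Knock-in cells of the SRSF1-3 genotype were represented by clone 41 and clone 47, with 1 library each, and the control was 1 library of untransfected DT40-ASF cells. SRSF1 belongs to the SR proteins, which regulate splicing, and SRSF1-3 names one of its splice isoforms. From general knowledge of the line, DT40-ASF cells lack a functional chicken SRSF1 gene and live on a supplied human copy, so the control carries that alteration as well. The labels call all 3 libraries reconstituted cells. Each clone descends from transfected cells, so transfection, clonal history and the knock-in cannot be told apart, and the lone control does not show how far untransfected cultures vary.

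Histone H3.3 is the replacement form of histone H3. The replication-dependent H3 genes are expressed mainly in S phase, whereas H3.3 is made throughout the cell cycle and enters chromatin outside replication. The HIRA complex places H3.3 in transcribed genes and regulatory regions, and ATRX works with DAXX to place it at telomeres and other repeats. ASF1 proteins carry H3-H4 dimers to the depositing complexes, and NASP protects the soluble pool of H3 and H4. In DT40 cells, H3.3 and HIRA have been studied in the replacement of histones during replication and in immunoglobulin gene diversification. The RefSeq gene table matched all 8 symbols and lists H3F3A as a synonym of the chicken gene H3F3C, which is therefore not to be read as the human gene of that name. Its other listed synonyms are H3-I to H3-VIII, and those of H3F3B are H3-IX, H3-X and H3.3B. No sequence of either gene was compared here. In mammals the paired H3.3 genes encode the same protein from different nucleotide sequences.

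Total counts were 42439517 in clone 41, 41760372 in clone 47 and 44868987 in the control, and 10203 genes passed the filter on low counts. SRSF1, the gene of the knock-in, had 57.7 FPKM in clone 41 and 195 in clone 47, against 43.6 in the control; gene-level values do not separate its isoforms or the human copy. B cell markers were present: 13 of 15 had at least 1 CPM (counts relative to a TMM-scaled library size) in each library, and BLK and TNFRSF13C did not. Their summed level was 948 CPM in clone 41 and 653 CPM in clone 47, against 1076 CPM in the control. In clone 47, 9 of the 15 were at least 2-fold below the control, as were 7.57% of all tested genes. The low-count genes BLK and TNFRSF13C were among the 9. BCL6, EBF1 and PAX5 were above the control in clone 47, at 1.63, 1.22 and 1.05 times. T cell markers summed to 20.8, 33.2 and 40.4 CPM in clone 41, clone 47 and the control, with CD4 at 0 in both clones and ZAP70 at 0 in clone 41. Others were present: CD8A had 359, 920 and 1011 counts in the same libraries, CD3D 296, 232 and 268, and LCK 5, 113 and 12. CD247 had 125, 118 and 267 counts, CD28 45, 28 and 225, and CD3E 10, 33 and 38. The FPKM of CD8A was low, at 0.271, 0.737 and 1.24. The 6 matched myeloid markers summed to 128, 209 and 114 CPM in the same libraries, nearly all from CEBPB, SPI1 and MPO. CSF1R had 1, 1 and 0 counts in clone 41, clone 47 and the control, LYZ 2, 0 and 2, and CSF3R 0, 2 and 0. The 6 matched fibroblast and epithelial markers summed to 133, 90.2 and 159 CPM, nearly all from VIM and COL1A2. COL3A1 and DCN were at 0 in clone 47 and in the control. The 1 matched erythroid or thrombocyte marker, GP9, was at 0 in both clones and had 1 count in the control.

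The largest difference among the 8 genes was a higher level of H3F3C in clone 47. H3F3C was more than 3-fold above the control in clone 47 and close to the control in clone 41. H3F3B was above the control in both clones, by a smaller factor than H3F3C in clone 47 and only slightly in clone 41. The chaperone genes stayed within 1.5-fold of the control, except NASP, which was lower in clone 47. None of the 8 genes passed a test over both clones after adjustment. These are bulk RNA levels, in which fewer or more cells of a kind and less or more RNA per cell cannot be told apart.

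H3F3C was the most abundant of the 8 in every library. It had 30813 counts in clone 41 and 121857 counts in clone 47, against 34413 counts in the control. Its FPKM was 584 in clone 41 and 2261 in clone 47, against 606 in the control. Clone 47 thus stood alone, and clone 41 and the control lay close together. Per TMM-scaled count, H3F3C was at 0.998 times the control in clone 41 (95% interval 0.983 to 1.01); with total-count scaling it was at 0.947 times (0.932 to 0.961), so whether clone 41 lies below the control depended on the scaling. In clone 47 the ratio was 3.66 (3.62 to 3.70), and clone 47 was at 3.67 times clone 41 (3.62 to 3.71). Here and below, an interval of a ratio of 2 libraries is an exact conditional binomial 95% interval and covers counting error alone: reads that are PCR copies of one molecule are not independent, and no library has a replicate culture. H3F3C was the gene with the 309th highest ratio of clone 47 to control among the 10203 tested genes, and by FPKM it was the 30th most abundant gene in clone 47, against the 99th in the control.

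H3F3B, the other H3.3 gene, had 5661 counts in clone 41 and 9688 counts in clone 47, against 5461 counts in the control. Its FPKM was 308 in clone 41 and 511 in clone 47, against 254 in the control. Both clones lay above the control, clone 47 by more. The count ratio was 1.16 in clone 41 (interval 1.11 to 1.20) and 1.83 in clone 47 (1.77 to 1.90), and 1.59 for clone 47 over clone 41 (1.54 to 1.64). On FPKM the ratio to the control was 1.21 in clone 41 and 2.01 in clone 47, so whether H3F3B reaches 2-fold in clone 47 depended on the deposited measure. It ranked 1152nd of the 10203 tested genes for the ratio of clone 47 to control.

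**Figure D1:**
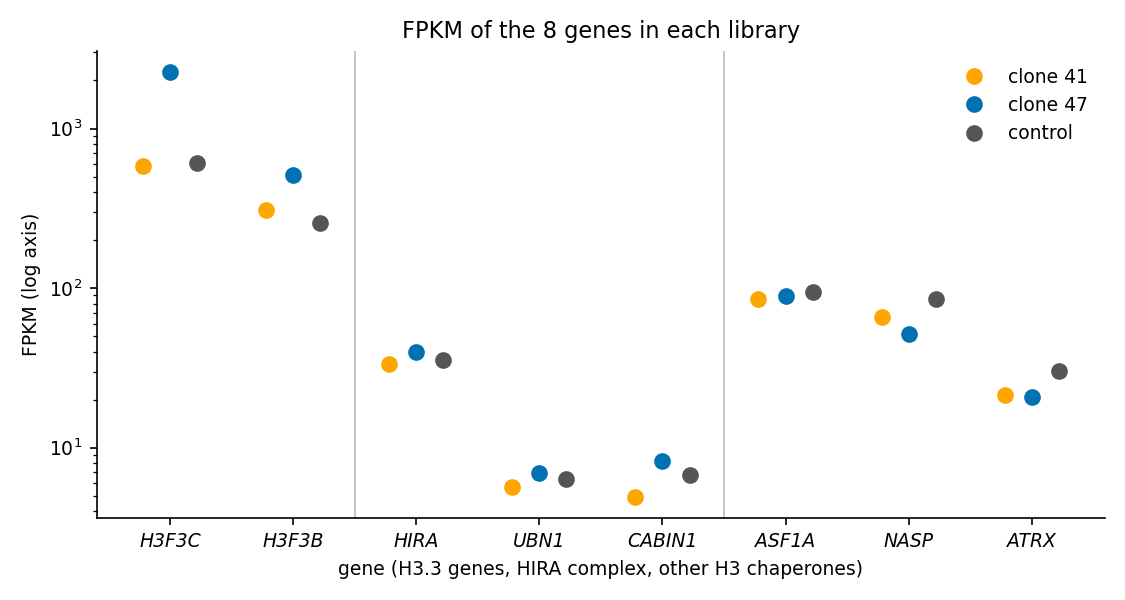
FPKM (log axis) of the 8 genes, grouped as H3.3 genes, HIRA complex and other H3 chaperones; each point is 1 library, in the order clone 41, clone 47 and control. H3F3C at 2261 FPKM in clone 47 stands apart from 584 in clone 41 and 606 in the control, while UBN1 and CABIN1 stay between 4.94 and 8.26 in all 3 libraries.

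In case reads of the H3.3 genes were assigned to the wrong one of the pair, they were also summed, which no exchange of reads between H3F3B and H3F3C can alter. The sum was 36474 counts in clone 41 and 131545 counts in clone 47, against 39874 in the control. It made up 0.0859% of all counts in clone 41 and 0.315% in clone 47, against 0.0889% in the control. The summed ratio to the control was 3.41 in clone 47 (interval 3.37 to 3.45) and 1.02 in clone 41 (1.01 to 1.03); with total-count scaling the clone 41 ratio was 0.967, on the other side of 1, so no direction is given for clone 41. Clone 47 was at 3.34 times clone 41 (3.31 to 3.38). The excess in clone 47 was therefore present in the pooled H3.3 signal and not only in its division between the copies.

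The composition of the pair also differed. H3F3C held 84.5% of the pair's reads in clone 41 (exact binomial interval 84.1% to 84.8%) and 92.6% in clone 47 (92.5% to 92.8%), against 86.3% in the control (86.0% to 86.6%). On FPKM, which allows for length, H3F3C made up 65.5% of the pair in clone 41 and 81.6% in clone 47, against 70.4% in the control. The quotient of H3F3C over H3F3B FPKM was 1.89 in clone 41 and 4.42 in clone 47, against 2.38 in the control. As the reads were assigned, clone 41 thus leaned slightly towards H3F3B and clone 47 clearly towards H3F3C. The intervals do not cover reads assigned to the wrong gene of the pair, and no source used here gives the counting tool.

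**Figure D2:**
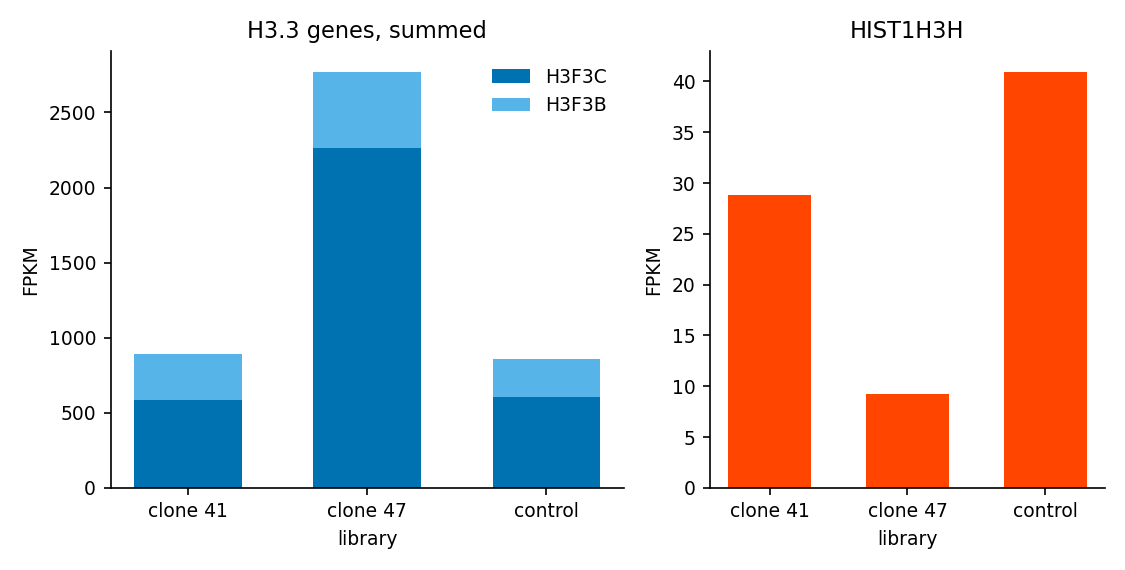
FPKM in clone 41, clone 47 and the control: left, H3F3C and H3F3B stacked; right, the replication-dependent H3 gene HIST1H3H on its own axis. The stacked H3.3 bars reach 892, 2772 and 860 FPKM, while HIST1H3H stands at 28.9, 9.26 and 41.0 FPKM.

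HIRA, the scaffold subunit after which the complex is named, had 5870 counts in clone 41 and 7233 counts in clone 47, against 6570 in the control. Its FPKM was 33.7 in clone 41 and 39.9 in clone 47, against 35.5 in the control. The ratio to the control was 0.996 for clone 41 (interval 0.961 to 1.03) with TMM and 0.945 (0.912 to 0.979) with total-count scaling, and 1.14 for clone 47 (1.10 to 1.18) with TMM.

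UBN1 encodes ubinuclein-1, the subunit that recognises the residues particular to H3.3. It had 1936 counts in clone 41 and 2381 counts in clone 47, against 2275 counts in the control. The FPKM of UBN1 was 5.67 in clone 41 and 6.91 in clone 47, against 6.40 in the control. All 3 libraries were close. With TMM the ratio to the control was 0.949 in clone 41 (interval 0.892 to 1.01) and 1.08 in clone 47 (1.02 to 1.15). With total-count scaling the clone 41 ratio was 0.900 (0.846 to 0.956), so whether clone 41 lies below the control depended on the scaling. The count ratio of clone 47 to clone 41 was 1.14 (interval 1.07 to 1.21).

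CABIN1, the third subunit, had the widest range within the complex. It had 2342 counts in clone 41 and 3953 counts in clone 47, against 3471 counts in the control. Its FPKM was 4.94 in clone 41 and 8.26 in clone 47, against 6.78 in the control. The ratio to the control was 0.752 in clone 41 (interval 0.713 to 0.793) and 1.18 in clone 47 (1.12 to 1.23), so the clones lay on opposite sides of the control. Clone 47 was at 1.57 times clone 41 for this gene (1.49 to 1.65), whereas HIRA had a ratio of 1.14 in the same comparison. The quotient of HIRA over CABIN1 FPKM was 6.82 in clone 41 and 4.83 in clone 47, against 5.24 in the control. That of HIRA over UBN1 was 5.95, 5.77 and 5.55 in the same libraries.

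ASF1A, which passes H3-H4 dimers to HIRA and to the replication-coupled chaperone CAF-1, stayed close to the control. It had 2800 counts in clone 41 and 3005 counts in clone 47, against 3374 counts in the control, and 84.9 and 89.8 FPKM in the clones, against 94.2 FPKM in the control. The ratio to the control was 0.925 in clone 41 (interval 0.880 to 0.973) and 0.921 in clone 47 (0.876 to 0.967). With total-count scaling the clone 47 ratio was 0.957 (0.911 to 1.01), so whether clone 47 lies below the control depended on the scaling. Clone 47 was at 0.995 times clone 41 (interval 0.945 to 1.05) with TMM and at 1.09 times (1.04 to 1.15) with total-count scaling.

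ATRX encodes a chromatin remodeller that, with DAXX, deposits H3.3 at repeats. It had 9893 counts in clone 41 and 10236 counts in clone 47, against 14652 counts in the control. Its FPKM was 21.4 in clone 41 and 20.7 in clone 47, against 30.2 in the control. Both clones lay below the control by similar factors, 0.753 in clone 41 (interval 0.734 to 0.772) and 0.722 in clone 47 (0.704 to 0.741). Between the clones the ratio was 0.959 (0.933 to 0.986) with TMM and 1.05 with total-count scaling, so no order of the clones is given. DAXX was looked up but was not matched to any of the genes with read counts, so its level is not given.

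NASP, the chaperone of the soluble H3-H4 reserve, was the lowest of the 8 relative to the control in clone 47. It had 10503 counts in clone 41 and 8144 counts in clone 47, against 14277 in the control. Its FPKM was 65.5 in clone 41 and 51.4 in clone 47, against 86.1 in the control. The 2 clones were both below the control, with a ratio of 0.820 for clone 41 (interval 0.800 to 0.841) and of 0.590 for clone 47 (0.574 to 0.606), and clone 47 was at 0.719 times clone 41 (0.698 to 0.740).

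**Figure D3:**
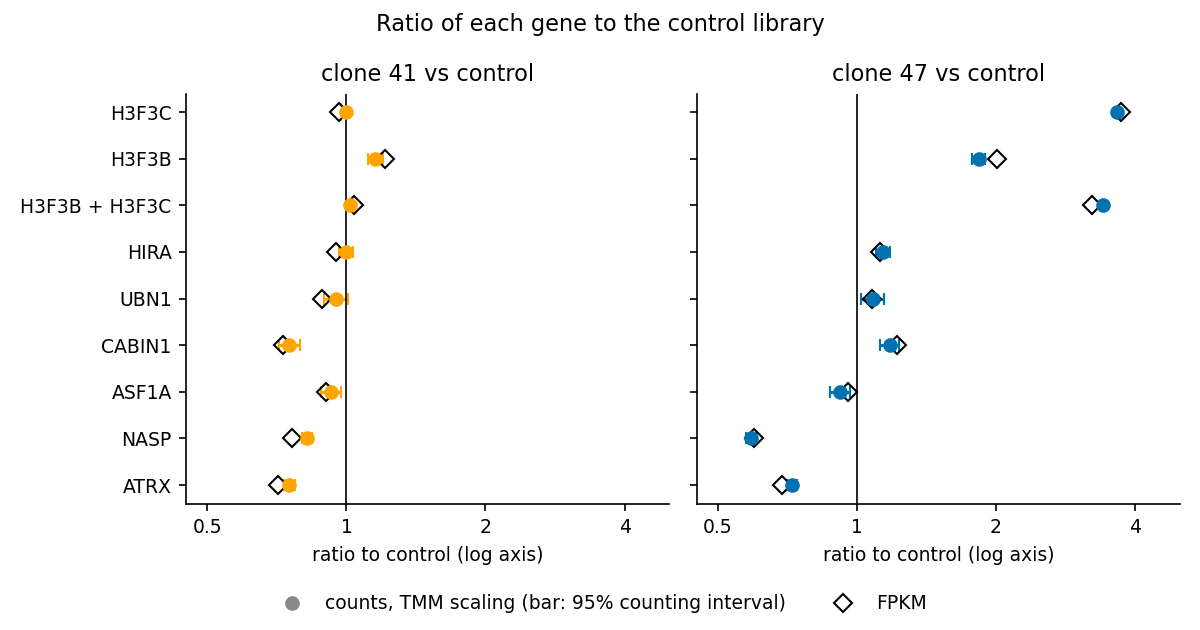
Ratio to the control library (log axis) of each gene and of the summed H3.3 pair, clone 41 on the left and clone 47 on the right; filled circles are TMM-scaled counts with 95% counting intervals and open diamonds are FPKM. In clone 47 H3F3C at 3.66 and NASP at 0.590 are the ends of the range; in clone 41 all 8 genes lie between 0.752 and 1.16 on counts.

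Per length, the order of the first 6 genes was the same in all 3 libraries: H3F3C, H3F3B, ASF1A, NASP, HIRA and ATRX. CABIN1 and UBN1 came last, with UBN1 above CABIN1 in clone 41 and below it in clone 47 and in the control. Of neighbours in that order, the ranges over libraries overlapped for ASF1A and NASP (84.9 to 94.2 and 51.4 to 86.1 FPKM) and for CABIN1 and UBN1, and did not overlap for the others. The summed FPKM of the 6 chaperone genes was 216 in clone 41 and 217 in clone 47, against 259 in the control. The FPKM of the 2 H3.3 genes together, divided by that sum, was 4.12 in clone 41 and 12.8 in clone 47, against 3.32 in the control. Divided by the sum of the 3 HIRA complex genes alone it was 20.1 in clone 41 and 50.4 in clone 47, against 17.7 in the control. The HIRA complex sum itself was 44.3 FPKM in clone 41 and 55.0 FPKM in clone 47, against 48.7 FPKM in the control. The higher quotient over the HIRA complex in clone 47 thus came with a higher numerator and not with a lower denominator. The quotient over the 6 chaperone genes came with a lower denominator there as well (217 against 259 FPKM). In clone 41 both denominators were below those of the control.

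Knock-in against control was tested over all genes with both clones as replicates. The fitted log2 fold change was 1.22 for H3F3C (SE 0.73) and 0.58 for H3F3B (SE 0.44), and it was -0.44 for ATRX (SE 0.42) and -0.50 for NASP (SE 0.42). For HIRA, UBN1, CABIN1 and ASF1A it lay between -0.12 and 0.094. None passed edgeR's quasi-likelihood test (adjusted p = 1 for each of the 8 genes). The same test called 0 of the 10203 genes (0% called), with 81 at an unadjusted p below 0.05; its legacy estimator and DESeq2 called 2 genes each and limma-voom 1, none of them one of the 8. On log2(FPKM + 1), limma called 12 of 8605 genes (0.139%), again none of the 8, whose adjusted p was 0.9999 each, with a difference of 0.92 for H3F3C (SE 0.65) and 0.64 for H3F3B (SE 0.52) on that scale. Apart from TMSB10, the 12 genes called on FPKM were entries with names of small RNAs. With 1 control and 2 clones an exact permutation test of a single value cannot go below p = 0.333. Leaving out clone 47 set the log2 ratio of H3F3C to -0.0028, and leaving out clone 41 set it to 1.87, so its fitted difference rests on clone 47. The value for H3F3B was 0.21 without clone 47 and 0.87 without clone 41. For NASP it was -0.29 without clone 47 and -0.76 without clone 41, and for ATRX -0.41 and -0.47. CABIN1, fitted at -0.052, stood at -0.41 without clone 47 and at 0.24 without clone 41.

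The number of the 8 genes past a given fold was read against that of all tested genes. In clone 41, 0 of 8 lay 1.5-fold or more from the control, as did 17.9% of all genes, and 0 of 8 lay 2-fold or more from it (8.75% of all genes). In clone 47, 3 of 8 lay 1.5-fold or more from the control, as did 35.8% of all genes: H3F3B and H3F3C were higher (18.6% of all genes) and NASP lower (17.2%). Only H3F3C, 1 of 8, reached 2-fold there (17.0% of all genes). Of clone 47 against clone 41, 3 of 8 differed by 1.5-fold or more, as did 41.0% of all genes; these were H3F3B, H3F3C and CABIN1, all higher in clone 47 (22.2%). Again only H3F3C, 1 of 8, differed by 2-fold or more (20.8%). Counted in either direction, these shares were near or below the background, so the number of genes past a fold was not particular to the 8. Counted as higher by 1.5-fold alone, 3 of 8 were past the fold for clone 47 over clone 41, beside 22.2% of all genes. For clone 47 against the control, 2 of 8, the H3.3 pair, were higher by that fold, beside 18.6% of all genes. With only 8 genes, neither share is read as an excess. On counts, 1 of 8, H3F3C, was at least 2-fold higher in clone 47 than in the control, as were 9.42% of all genes. By FPKM plus 1, 2 of the 8, both H3.3 genes, were, as were 3.43% of 8605 genes. H3F3B was only just past that cut, at a log2 ratio of 1.0047. The added 1 shrinks the differences of low genes and hardly those of the abundant H3.3 genes. The 3.43% is therefore not a like background for them. The median log2 ratio of the 6 chaperone genes was -0.20 in clone 41 and -0.0030 in clone 47, beside -0.0015 and 0.0026 over all tested genes. In clone 47 this hid opposite sides: the median was 0.19 for the 3 HIRA complex genes and -0.47 for the 3 other H3 chaperones. In clone 41 these group medians were -0.076 and -0.29. For clone 47 over clone 41 the median of all tested genes was 0.027 with TMM and 0.16 with total-count scaling, and ratios nearer to 1 than that shift have no settled direction.

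**Figure D4:**
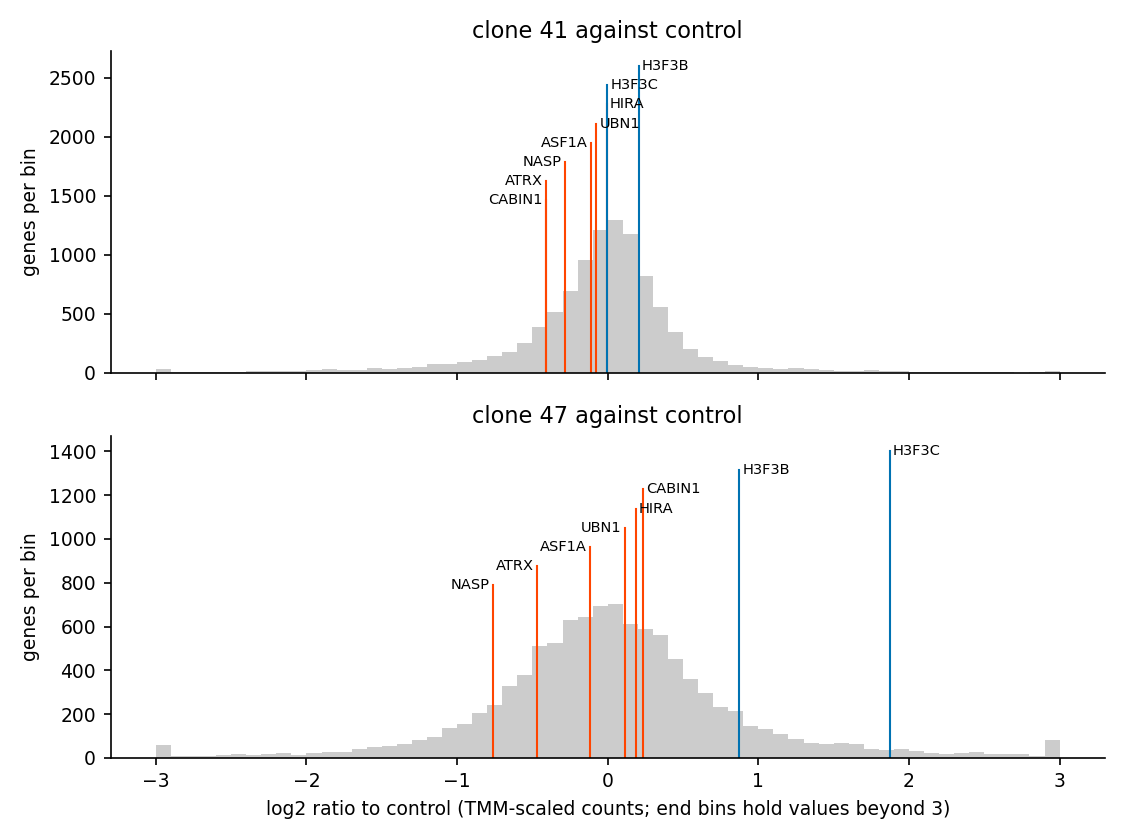
Distribution of log2 ratios to the control over the 10203 tested genes (grey; genes per bin of TMM-scaled counts), clone 41 above and clone 47 below, with H3.3 genes as blue lines and chaperones as orange lines. In clone 41 the 8 genes lie between -0.41 and 0.21; in clone 47 H3F3C at 1.87 is in the right tail and the 6 chaperones lie between -0.76 and 0.24.

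The genes most like the H3.3 genes in these data were taken by distance over the pair of log2 ratios to the control, among 7912 genes with a mean of at least 5 CPM, a likeness that rests on 3 libraries. For H3F3C they were MXRA7 (ratio 1.06 in clone 41, 3.71 in clone 47), NAAA (1.03, 3.44) and FAM221A (1.03, 3.96). For H3F3B they were NDUFC2 (1.17, 1.81), DPY19L3 (1.17, 1.85) and ZSWIM7 (1.14, 1.84). The likeness was measured on counts: on FPKM, MXRA7 had ratios of 1.46 and 2.48 and ZSWIM7 of 0.816 and 1.86, away from the H3.3 gene each was matched to, in clone 41 and, for MXRA7, in clone 47 too. Within 0.25 log2 units lay 16 genes for H3F3C and 273 genes for H3F3B. SRSF1, with ratios of 1.58 (interval 1.48 to 1.70) for clone 41 and 4.16 (3.92 to 4.42) for clone 47, was 0.69 log2 units from H3F3C, with 116 genes at or within that distance, and 1.27 log2 units from H3F3B, with 5634 at or within it.

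Genes next to H3F3C in the RefSeq gene order, looked up after the values were seen, did not share its level in clone 47. The 3 nearest tested genes on one side, PARP1, LIN9 and ACBD3, were at 0.533, 1.05 and 0.975 times the control in clone 47. On the other side SDE2 and TMEM63A were at 0.779 and 1.15 times. LEFTY2, between those, had 42 counts in clone 41 and 0 counts in clone 47, against 35 in the control. Beside H3F3B, GALK1 was at 1.66 times the control in clone 47, WBP2 at 1.43 times and UNC13D at 0.530 times, and the 3 others (UNK, ITGB4 and SAP30BP) lay between 1.10 and 1.17 times.

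Other genes of H3 handling were taken as lists. Their ratios are of TMM-scaled CPM after a prior count of 2 was added, and pairs of ratios give clone 41 first and clone 47 second. Among 24 tested genes of other H3-H4 chaperones and deposition factors, 0 passed edgeR's test and 0 differed 2-fold or more from the control in either clone, as did 8.75% of all genes in clone 41 and 17.0% in clone 47. The median log2 ratio was 0.10 for clone 41 and -0.050 for clone 47. RBBP4, a histone-binding subunit shared by CAF-1 and deacetylase complexes, was the highest in clone 47, with 21896 counts in clone 41 and 39854 in clone 47, against 22792 in the control (ratios 1.07 and 1.81). CHD2, a remodeller tied to H3.3 deposition at transcribed genes in mammals, had ratios of 1.14 and 1.55. The lowest were ANP32B, an acidic histone chaperone (1.07 and 0.552), and NPM1, a nucleolar histone chaperone (1.40 and 0.651). The first subunits of CAF-1, which deposits replication-dependent H3, stayed near the control: the log2 ratio of CHAF1A was -0.0061 for clone 41 and -0.18 for clone 47, and that of CHAF1B was 0.20 and -0.0041. UBN2, the paralogue of UBN1, had log2 ratios of -0.43 and -0.21. No gene of the list was as far from the control in clone 47 as H3F3C.

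The list of replication-dependent histones and factors that process their mRNA held 20 tested genes, of which 0 passed the test. In clone 41, 2 were 2-fold or more higher and 0 lower (3.20% and 5.55% of all genes). In clone 47, 2 were 2-fold or more higher and 2 lower (9.42% and 7.57% of all genes). The higher ones there had few counts: HIST1H2A3 had 16, against 7 in the control, and HIST1H2A4L2 had 26, against 10. On FPKM both were lower in clone 47 than in the control (12.8 against 21.9, and 16.9 against 27.3). The list's median log2 ratio was -0.063 for clone 41 and -0.23 for clone 47. HIST1H3H, the one replication-dependent H3 gene listed, had 590 counts in clone 41 and 199 counts in clone 47, against 664 counts in the control. Its count ratio was 0.990 in clone 41 (interval 0.885 to 1.11) and 0.310 in clone 47 (0.263 to 0.363), the opposite side of the control from the H3.3 genes. On FPKM the clone 41 ratio of HIST1H3H was 0.705 and that of clone 47 was 0.226. The quotient of the H3.3 pair's FPKM over that of HIST1H3H was 30.9 in clone 41 and 299 in clone 47, against 21.0 in the control. Transcripts of replication-dependent histones normally end in a stem-loop without a poly(A) tail, and the labels do not say how mRNA was enriched, so the level of HIST1H3H relative to H3.3 may not be that in the cells. The count and FPKM measures also disagreed for other histone genes: HIST1H2A4L3, an H2A gene, had 334 counts in clone 41, against 167 in the control (ratio 2.21), while its FPKM was 23.5 in clone 41, against 22.8 in the control. HIST1H2B5, an H2B gene, had 40 counts in clone 41 and 37 in clone 47, against 81 in the control. Of the processing factors, NPAT, the coactivator of histone gene transcription, had ratios of 0.969 and 1.34. SLBP, which binds the stem-loop of histone mRNA, had 2820 counts in clone 41 and 5629 in clone 47, against 4404 in the control.

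Of 6 tested genes of other histone variants, 0 passed the test. CENPA, the centromeric form of H3, was the lowest, with 73 counts in clone 41 and 26 in clone 47, against 130 in the control (ratios 0.632 and 0.219), and its FPKM was 5.27, 1.62 and 7.25 in the same libraries. H2AFZ, an H2A.Z gene, had ratios of 0.860 and 0.700, H2AFV, the other H2A.Z gene, of 0.831 and 1.01, and H2AFY, a macroH2A gene, of 0.915 and 1.09. A higher level in clone 47 was thus not a shared feature of the replacement histones. The list of H3.3 readers and modifiers and ATRX partners had 11 tested genes, 0 past the test, and its median log2 ratio was 0.089 for clone 41 and -0.14 for clone 47. ZMYND11, a reader of methylated H3.3 in mammals, had ratios of 1.43 and 1.38. CBX3, a gene of the HP1 family of heterochromatin proteins, had ratios of 1.08 and 1.42, and SETDB1, which encodes a methyltransferase of histone H3, had 0.930 and 0.680. CHEK1, the checkpoint kinase gene, was the 1 of 11 members 2-fold or more lower in clone 47 (7.57% of all genes), with ratios of 0.851 and 0.417.

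**Figure D5:**
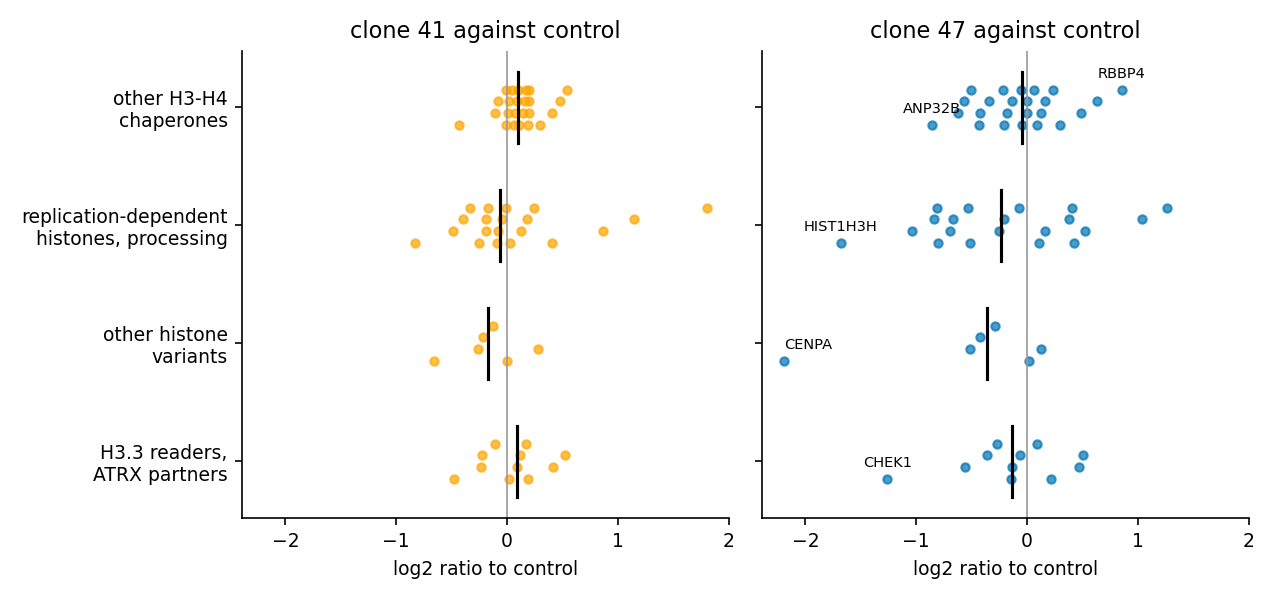
Log2 ratio to the control of each tested gene of the 4 lists, clone 41 on the left and clone 47 on the right; black bars are list medians. In clone 47 HIST1H3H at -1.68, CENPA at -2.19 and CHEK1 at -1.26 lie far to the left of their lists, and no chaperone of the first list is beyond 1 in either direction.

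In clone 47, HIST1H3H, CENPA and CHEK1 were the lowest of their lists, whose median log2 ratios were -0.23, -0.36 and -0.14. CENPA had only 26 counts there. These low values, that of NASP and the higher H3.3 values stood beside other differences of that library. As given above, 9 of 15 B cell markers were at least 2-fold lower there, where 7.57% of all genes were, and SRSF1 was 2.63 times as high as in clone 41 (interval 2.50 to 2.77). The matched myeloid markers summed to 209 CPM in clone 47, against 114 in the control, nearly all from CEBPB, SPI1 and MPO. CSF1R, CSF3R and LYZ had 2 counts or fewer in each library. The part of these other differences in the H3.3 result was not tested.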

How the data were processed

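RNA of 3 DT40-ASF libraries was sequenced as strand-specific paired ends after mRNA enrichment, per the labels' protocols. TopHat2, TopHat, Bowtie, Cufflinks 2.2.1 and Cuffdiff with build galGal4 are named in the submitters' processing notes. The authors deposited raw read counts, as whole numbers for each gene, and FPKM, a measure scaled by length and depth. No source used here gives the counting tool, annotation release, strand setting or any further scaling of the FPKM.

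Groups came from the genotype label. Genes were filtered with filterByExpr (minimum count 10, minimum total 15), scaled by TMM and tested with edgeR 4.0.16 (glmQLFit with the newer estimator, glmQLFTest, Benjamini-Hochberg at 0.05, 1 residual degree of freedom per gene, which assumes that the lone control varies as the clones do). Each clone and the control have 1 library, so the p-values rest on the difference between the 2 clone libraries, with information shared over all genes. They do not measure the spread between control cultures or between cultures of one clone. FPKM were tested with limma 3.58.1 on log2(FPKM + 1), for genes with an FPKM of at least 1 in any library; this scale understates differences of low genes. Fold calls over all genes used log2 CPM (prior count 2), and ratios of the 8 genes used scaled counts as they are. Alternatives were DESeq2 1.42.0, limma-voom, other scalings, filters and pseudocounts. Fits were tested on simulated data. The lists and the 8 genes were chosen with earlier results of these data known. Named list genes are the 2 highest and 2 lowest in clone 47 of each list with a mean of at least 1 CPM. CHAF1A, CHAF1B, UBN2, SLBP, HIST1H2A3 and HIST1H2A4L2 were added after their values were seen. The neighbours in RefSeq order (assembly GRCg7b, used for names and order only) were also added after their values were seen.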

Additional observations from a re-analysis of the deposited data

How the results depend on the processing

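Neither scaling by DESeq2 size factors nor the choice of test moved the adjusted p of any of the 8 genes across 0.05. The unadjusted p of H3F3C was 0.109 with edgeR's quasi-likelihood test and 0.0323 with its legacy estimator, so before adjustment the choice of test did matter for this gene. Genes called for knock-in against control were 0 with edgeR, 2 with its legacy estimator, 2 with DESeq2, 1 with limma-voom and 12 with limma on log2(FPKM + 1); without the FPKM filter limma called 0, with 174 at an unadjusted p below 0.05. Genes at least 2-fold apart numbered 893 in clone 41, 1733 in clone 47 and 2125 between the clones, and 97, 594 and 824 on log2(FPKM + 1); at 1.5-fold they were 1826, 3654 and 4186. The H3F3B and H3F3C sum in clone 41, clone 47 and clone 47 over clone 41 was at 0.967, 3.54 and 3.67 times with total counts and at 1.04, 3.22 and 3.11 times on FPKM. The ratio of ATRX for clone 47 over clone 41 turned to 1.05 with total counts. The log2 fold change of UBN1 was 0.022 on counts and -0.027 on FPKM. Leaving out a clone gave H3F3C -0.0028 to 1.87, UBN1 -0.076 to 0.11, HIRA -0.0059 to 0.19 and CABIN1 -0.41 to 0.24 on counts, and -0.054 to 1.90, -0.15 to 0.096, -0.074 to 0.16 and -0.39 to 0.25 on log2(FPKM + 1); these have no residual degrees of freedom, so no test and no count of called genes. For H3F3B, ASF1A, ATRX and NASP leaving out either clone kept the direction. The causes were not tested. No paired analysis was possible because the control has 1 library and the labels give no shared replicate numbers. The clone 41 ratios of H3F3C, HIRA and UBN1 to the control and the ASF1A ratio between the clones lay within counting error of 1 with TMM and outside it with total counts (0.947, 0.945, 0.900 and 1.09), so the scaling decided them. It also decided the clone 47 ratio of ASF1A to the control, which lay outside counting error of 1 with TMM and within it with total counts (0.957). The number of libraries limits every ratio.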
